A study of Mus musculus with 6 samples.

Results

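The genes described here are 39 transcripts of the cell division cycle, 17 that serve DNA replication in S phase and 22 that serve the entry into and passage through mitosis. They are those rows of the deposited expression table whose gene symbol is on a list of S and G2/M genes, and all 39 were found among 24537 genes. The rule uses no measured value, though the list was drawn up with earlier results of these data known. Replication and mitotic genes were kept apart throughout. Genes were tested where 3 or more libraries reached a TPM of 1, which 13211 genes and each of the 39 did. TPM is the number of reads of a transcript corrected for its length and for the size of the library, so that levels of different genes can be set side by side.

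The study profiled regulatory T cells (Tregs), a class of CD4 T cell that keeps other immune cells in check, from the colon of mice with colitis provoked by the hapten TNBS. There were 3 libraries labelled REV-ERB KO and 3 labelled REV-ERB WT, and both groups were given TNBS in the same way. Mice were sensitised through the skin with 150 µl of 1% TNBS and received 100 µl of 2.5% TNBS into the rectum 7 days later. REV-ERB is a nuclear receptor of the circadian clock that represses transcription. The sources used here leave unstated which REV-ERB gene was removed and in which cells, and the age and strain of the mice. The labels do not say that libraries of 1 group came from separate animals, so a p-value here reflects only how far these samples spread, and part of that may be technical.

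Nr1d1, which encodes REV-ERBα, was measured at 169, 154 and 141 TPM in KO-labelled libraries 1 to 3, against 66.3, 104.0 and 88.2 TPM in WT-labelled libraries 1 to 3, so every KO-labelled library was higher. The transcript was thus not lower under the KO label. Its total level cannot show whether part of the gene was deleted, and which gene was removed is unstated. The labels could therefore not be checked from it, and directions below follow the labels as given. Foxp3, the transcription factor that defines Tregs, was present in every library, at 195, 171 and 235 TPM in KO-labelled libraries, against 451, 664 and 590.2 TPM in WT-labelled libraries. The depth was 12641850, 13848375 and 15890630 reads in KO-labelled libraries 1 to 3, and 9794480, 12122575 and 11678688 reads in WT-labelled libraries 1 to 3. Behind a single value of a cell cycle gene stood between 83 and 14082 reads.

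A cell that commits to division releases the E2F transcription factors from the retinoblastoma protein, and E2F then switches on the enzymes of nucleotide supply and the proteins that license and unwind origins of replication. Mitotic genes follow later, when the DREAM complex gives way to an activating complex that contains B-MYB and FOXM1 and binds the cell cycle genes homology region (CHR), often near CCAAT boxes bound by NF-Y. In T cells, transcripts of both classes are low at rest and mark the dividing fraction of a population, and in bulk RNA fewer dividing cells and less RNA per dividing cell cannot be told apart.

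The promoters of 5 of the genes are printed because they show in letters how the classes differ: Mcm5 and Cdt1 for replication, Cdk1, Plk1 and Bub1 for mitosis. They were picked after their motifs and levels had been seen. Each sequence covers 250 bases before to 50 bases after the start of the gene in RefSeq (build GRCm38.p6), read 5′ to 3′ on the strand of the gene. The windows are chr8:75109259-75109558, plus strand, for Mcm5, chr8:122567765-122568064, plus strand, for Cdt1, chr10:69352863-69353162, minus strand, for Cdk1, chr7:122159185-122159484, plus strand, for Plk1 and chr2:127831810-127832109, minus strand, for Bub1. Capitals mark the E2F letters TTCCCGC or TTGGCGC, the CHR letters TTTGAA or TTCGAA, and CCAAT, each on either strand.
Mcm5: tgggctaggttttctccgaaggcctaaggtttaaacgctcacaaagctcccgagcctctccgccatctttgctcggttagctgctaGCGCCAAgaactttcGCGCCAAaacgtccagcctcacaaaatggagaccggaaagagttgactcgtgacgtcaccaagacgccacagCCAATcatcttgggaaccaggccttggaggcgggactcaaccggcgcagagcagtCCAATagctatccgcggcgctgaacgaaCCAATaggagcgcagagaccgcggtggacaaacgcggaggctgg
Cdt1: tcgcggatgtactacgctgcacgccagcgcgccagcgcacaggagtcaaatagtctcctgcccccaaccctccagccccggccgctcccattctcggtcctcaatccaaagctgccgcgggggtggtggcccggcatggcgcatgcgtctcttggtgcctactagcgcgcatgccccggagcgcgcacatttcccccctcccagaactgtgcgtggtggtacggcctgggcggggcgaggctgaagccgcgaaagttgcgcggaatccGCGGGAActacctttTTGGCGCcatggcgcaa
Cdk1: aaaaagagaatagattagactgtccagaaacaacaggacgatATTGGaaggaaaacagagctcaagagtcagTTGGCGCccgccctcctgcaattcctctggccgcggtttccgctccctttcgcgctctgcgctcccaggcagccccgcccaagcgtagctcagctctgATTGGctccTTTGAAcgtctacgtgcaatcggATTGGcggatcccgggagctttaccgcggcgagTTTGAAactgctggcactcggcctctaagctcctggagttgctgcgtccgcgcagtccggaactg
Plk1: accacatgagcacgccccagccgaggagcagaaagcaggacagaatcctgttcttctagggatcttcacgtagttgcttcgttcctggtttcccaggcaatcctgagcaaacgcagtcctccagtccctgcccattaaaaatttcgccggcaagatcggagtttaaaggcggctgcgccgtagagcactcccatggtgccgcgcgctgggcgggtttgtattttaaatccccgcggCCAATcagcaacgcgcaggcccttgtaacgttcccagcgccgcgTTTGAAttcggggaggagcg
Bub1: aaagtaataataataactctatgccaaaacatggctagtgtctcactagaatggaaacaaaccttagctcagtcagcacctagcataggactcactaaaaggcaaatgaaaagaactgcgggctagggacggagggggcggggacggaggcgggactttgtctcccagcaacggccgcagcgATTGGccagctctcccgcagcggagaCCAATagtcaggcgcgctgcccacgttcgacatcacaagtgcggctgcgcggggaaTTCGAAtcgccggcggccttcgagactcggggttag

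In Mcm5 and Cdt1 the capitals are E2F letters, to which Mcm5 adds 3 CCAAT boxes. Plk1 and Bub1 hold CHR and CCAAT letters and no E2F letters, and Cdk1 holds all of them. A RefSeq window was found for 32 of the 39 genes, 14 replication and 18 mitotic. E2F letters stood in 57.1% of the replication windows, 16.7% of the mitotic windows and 6.81% of all 32851 promoter windows in the RefSeq table. CHR letters stood in 14.3%, 77.8% and 19.2% in the same order, CCAAT in 64.3%, 88.9% and 37.4%, and CHR with CCAAT in 14.3%, 77.8% and 7.52%. E2F and CCAAT letters overlapped in 2 windows, and 4 windows began from a start other than that of the transcript in the deposited table. A match describes the sequence and is not a measured binding site.

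The question was whether the division programme of Tregs differed between the labelled genotypes. No cell cycle gene did so past the threshold: limma's moderated test across 13211 genes, on log2(TPM + 1), called 0 of 17 replication and 0 of 22 mitotic genes at an adjusted p of 0.05, and 0% of all genes. At an unadjusted p of 0.05 it called 0 of the 39, against a background of 15.7% of all genes (2068). The voom test on recovered reads also called 0 genes in all, and a fit with library weights called 582 genes (4.41%) and 0 of the 39. For no cell cycle gene did all libraries of one label lie above all of the other, a pattern that 10.6% of all genes showed with KO-labelled libraries higher and 10.4% with them lower. What the 39 genes shared instead was 1 library: that labelled KO 3 had the highest level of the 6 in 36 of them, 15 of 17 replication and 21 of 22 mitotic, whereas it was highest in 20.0% of all genes tested. The libraries labelled KO 1, KO 2 and WT 2 were highest in 0 of the 39, against 12.4%, 20.5% and 21.7% of all genes. The library labelled KO 3 was singled out after the values had been seen. Leaving it out, as done below, therefore lowers most differences of these genes by that choice itself. The exceptions were Pcna and Stmn1, highest in the library labelled WT 1 (9.23% of all genes), and Ccne2, highest in that labelled WT 3 (16.1%).

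**Figure D1:**
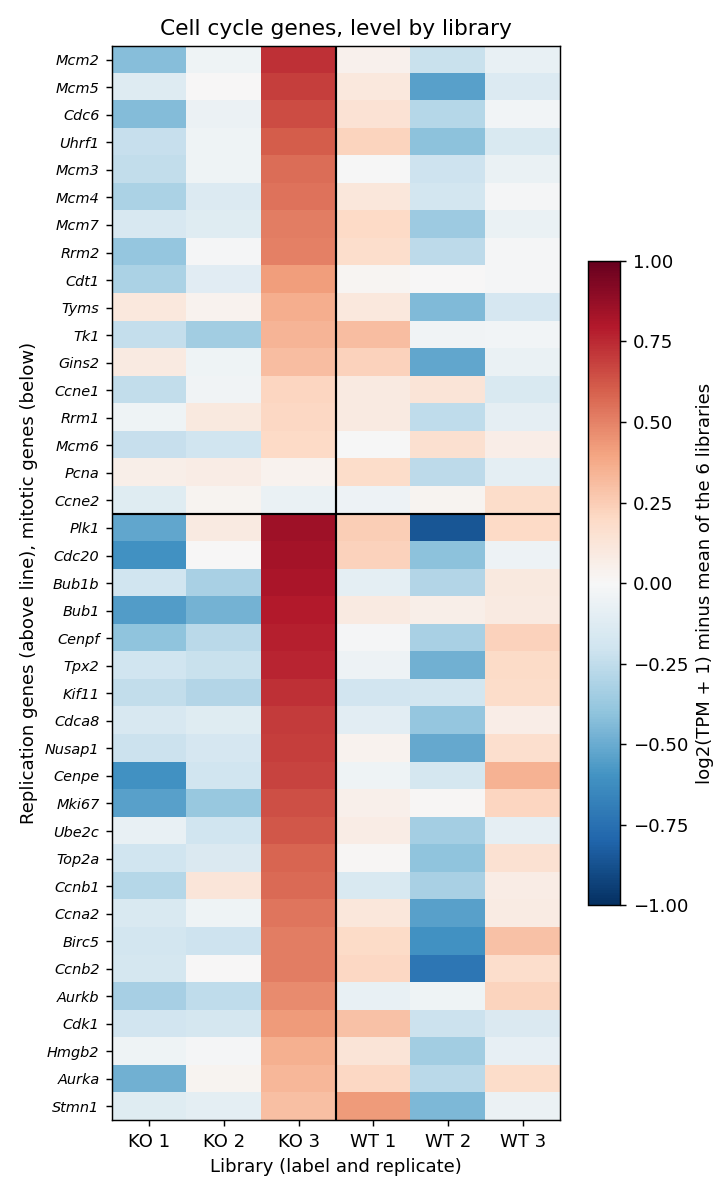
Level of each of the 39 cell cycle genes in each library, as log2(TPM + 1) minus the mean of the 6 libraries, with KO-labelled libraries 1 to 3 left of WT-labelled libraries 1 to 3, 17 replication genes above the line and 22 mitotic genes below. The column of KO 3 is red in nearly every row, being the highest in 36 of 39, and the palest rows there are Pcna and Ccne2.

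Set against the mean of the 6 libraries, the median replication gene lay at -0.23, -0.04 and 0.42 on the log2 scale in KO-labelled libraries 1 to 3, and at 0.11, -0.26 and -0.06 in WT-labelled libraries 1 to 3. The median mitotic gene lay at -0.21, -0.17 and 0.63 in KO-labelled libraries, and at 0.06, -0.34 and 0.16 in WT-labelled libraries. The median of all genes tested stayed between -0.03 and 0.05 in the same libraries. So KO 3 stood above the other 5 libraries in both classes, while KO 1 and KO 2 lay inside the range of WT-labelled libraries. The summed TPM of the 39 genes was 1363, 1462 and 2175 in KO-labelled libraries, and 1686, 1315 and 1585 in WT-labelled libraries. The lowest library was that labelled WT 2 for 20 genes, KO 1 for 16 and KO 2 for 3. The spread within the labels followed: the SD of log2(TPM + 1) had a median of 0.435 over the 39 genes in KO-labelled libraries and 0.227 in WT-labelled libraries, and it was larger in KO for 30 of 39 genes, against 53.3% of all genes.

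Among the replication genes, Pcna, which encodes the sliding clamp that holds DNA polymerase on its template, was the most abundant of the 39. It stood at 201, 203 and 198 TPM in KO-labelled libraries 1 to 3, against 219, 161 and 179.9 TPM in WT-labelled libraries 1 to 3 (mm10 chr2:132249286-132253180, minus strand). The KO-labelled libraries were nearly level and lay inside the range of WT-labelled libraries, so Pcna did not share the high value of KO 3. On the log2 scale it differed by 0.11 (SE 0.123, limma adjusted p = 0.678).

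Mcm2 to Mcm7 encode the subunits of the replicative helicase, which is loaded at origins and unwinds the DNA. Mcm5 (mm10 chr8:75109509-75128439, plus strand), whose promoter is shown above, had the largest difference among the replication genes. It was measured at 57.3, 62.9 and 102 TPM in KO-labelled libraries, against 67.6, 42.7 and 57.0 TPM in WT-labelled libraries. KO 3 lay above the rest, and KO 1 and KO 2 lay inside the range of WT-labelled libraries. The difference was 0.38 (SE 0.242, limma adjusted p = 0.477), and 0.13 without KO 3. Mcm3 (mm10 chr1:20803014-20820213, minus strand) stood at 67.0, 77.1 and 118 TPM in KO-labelled libraries, against 79.4, 68.8 and 75.8 TPM in WT-labelled libraries. KO 3 was again alone on top. The difference of 0.18 (SE 0.197, limma adjusted p = 0.677) became -0.05 without it.

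Mcm6 (mm10 chr1:128331575-128359705, minus strand) ran the other way from Mcm5. It was measured at 134, 137 and 181 TPM in KO-labelled libraries, against 157, 176 and 164 TPM in WT-labelled libraries. KO 1 and KO 2 were the lowest of the 6 and KO 3 the highest, just above WT 2. The difference was -0.15 (SE 0.133, limma adjusted p = 0.611), and -0.29 without KO 3. Mcm2, given in full because its KO 3 value stood out once the values had been seen, was at 41.1, 53.9 and 92.8 TPM in KO-labelled libraries, against 57.4, 47.4 and 52.7 TPM in WT-labelled libraries. KO 3 was alone on top, 1.62-fold above the highest of them. Mcm4 and Mcm7 had differences of 0.06 and 0.15, which became -0.20 and -0.06 without KO 3, so that the helicase as a whole held 1 difference below 0 with all libraries and 5 of 6 without KO 3. Mcm7 holds the microRNA genes Mir25, Mir106b and Mir93 on its own strand, so reads there could come from either.

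Nucleotides reach the fork through ribonucleotide reductase (Rrm1 and Rrm2), thymidylate synthase (Tyms) and thymidine kinase (Tk1). Tyms (mm10 chr5:30058200-30073625, minus strand, listed under a non-coding transcript record) had the smallest p among the replication genes. It was measured at 14.9, 14.1 and 18.0 TPM in KO-labelled libraries, against 14.8, 9.86 and 12.1 TPM in WT-labelled libraries. WT 1 lay between KO 1 and KO 2, so the labels overlapped. The difference was 0.34 (SE 0.185, limma adjusted p = 0.411, exact permutation p = 0.2), and 0.24 without KO 3. Rrm1 (mm10 chr7:102441695-102469771, plus strand) was measured at 48.3, 53.3 and 57.6 TPM in KO-labelled libraries, against 53.0, 41.6 and 46.7 TPM in WT-labelled libraries. The KO-labelled libraries were on the higher side, with WT 1 among them. The difference was 0.17 (SE 0.126, limma adjusted p = 0.537, exact permutation p = 0.2). Rrm2, the regulatory subunit that limits the activity of the enzyme in S phase, differed by 0.07, and by -0.16 without KO 3. Tk1 differed by -0.17, and by -0.38 without KO 3.

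Licensing of origins needs Cdc6 and Cdt1, which load the helicase, and its firing needs the GINS complex, of which Gins2 encodes a subunit. Gins2 (mm10 chr8:120581266-120589075, minus strand) stood at 20.9, 18.9 and 24.4 TPM in KO-labelled libraries, against 23.1, 13.3 and 18.6 TPM in WT-labelled libraries. KO 3 was the highest library and WT 2 the lowest, the labels overlapped, and the difference was 0.24 (SE 0.207, limma adjusted p = 0.611). Cdt1, given in full after its values had been seen, was at 30.9, 35.7 and 52.1 TPM in KO-labelled libraries, against 39.4, 38.9 and 38.6 TPM in WT-labelled libraries. The WT-labelled libraries were almost equal, with KO 1 and KO 2 below them and KO 3 above them. Cdc6 differed by 0.11, and by -0.19 without KO 3, its KO 3 level being 1.98-fold the mean of KO 1 and KO 2. Uhrf1, which carries DNA methylation over to the new strand, differed by 0.22, and by -0.02 without KO 3.

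The cyclins E, partners of CDK2 at the start of S phase, were the lowest of the replication genes, and KO 3 stood out in neither. Ccne1 (mm10 chr7:38097984-38107490, minus strand) stood at 5.66, 6.71 and 8.20 TPM in KO-labelled libraries, against 7.40, 7.66 and 6.11 TPM in WT-labelled libraries, a difference of -0.04 (SE 0.195, limma adjusted p = 0.929). Ccne2 (mm10 chr4:11191709-11204779, plus strand) was measured at 4.40, 4.97 and 4.59 TPM in KO-labelled libraries, against 4.67, 4.98 and 5.67 TPM in WT-labelled libraries, a difference of -0.11 (SE 0.183, limma adjusted p = 0.802). The labels overlapped in both genes, and KO 3 led Ccne1 by 1.07-fold over the next library and was among the lower libraries for Ccne2. Ccne2 shares 5622 bases with Ints8 on the opposite strand, and the sources used here do not state whether counting used strand. The same limit holds for shorter overlaps on opposite strands, of Gins2 with Gse1 (118 bases), Tk1 with Afmid (96), Cdc20 with Elovl1 (52) and Nusap1 with Oip5 (208).

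**Figure D2:**
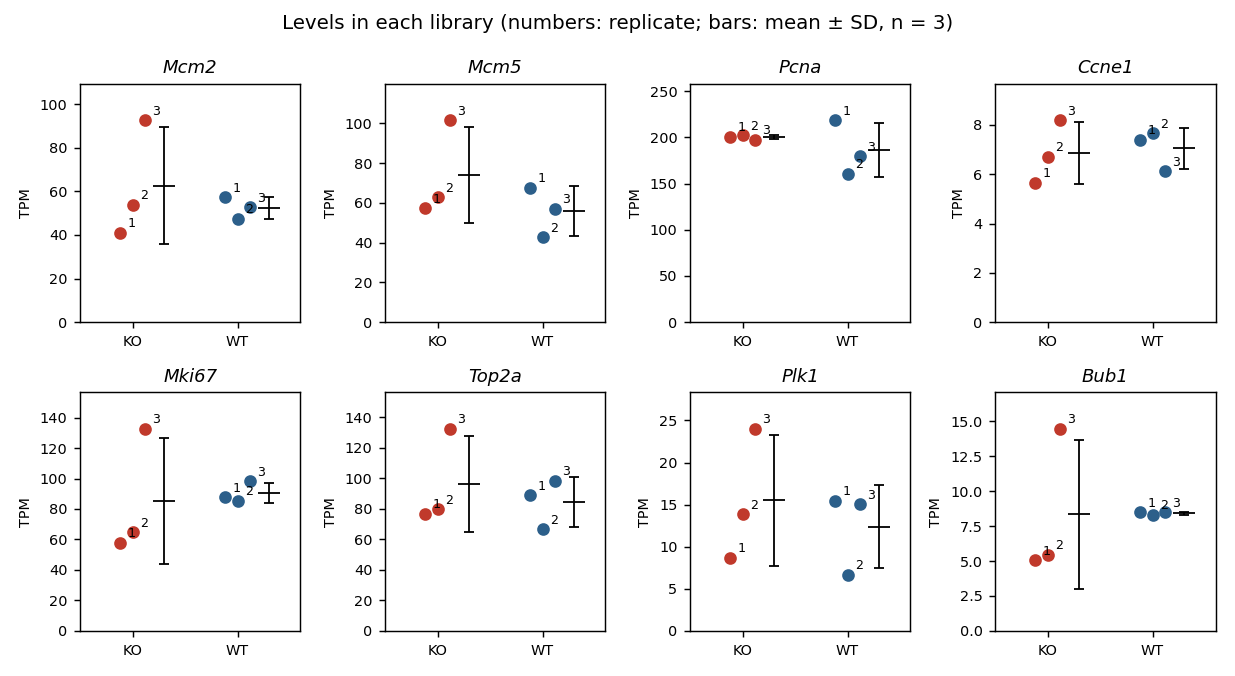
Level in TPM, on axes from 0, of 4 replication genes (upper row) and 4 mitotic genes (lower row) in KO-labelled libraries (left) and WT (right), with the replicate number beside each point and bars for mean ± SD (n = 3). KO 3 is the top point in 7 of the 8 panels, for Bub1 at 14.5 TPM against 8.48 TPM in the highest library labelled WT, and Pcna is the panel where it is not.

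Of the mitotic genes, Mki67, which encodes the Ki-67 protein that coats mitotic chromosomes and is used to count dividing cells, and Top2a, which encodes the topoisomerase that untangles sister chromatids, were the most abundant. Mki67 (mm10 chr7:135689788-135716379, minus strand) stood at 57.9, 64.9 and 133 TPM in KO-labelled libraries, against 87.7, 85.5 and 98.2 TPM in WT-labelled libraries. The WT-labelled libraries were close together, KO 1 and KO 2 lay below all of them and KO 3 above all of them. The difference was -0.18 (SE 0.281, limma adjusted p = 0.780), the lowest of the 39. Without KO 3 it was -0.55, with an unadjusted limma p of 0.00171 and a limma adjusted p of 0.0809, which missed the threshold. KO 3 was singled out by its high level in these same genes, so this difference and its p carry that choice. Over all settings the limma adjusted p ran from 0.0809 to 0.986.

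Top2a (mm10 chr11:98992947-99024189, minus strand) stood at 76.7, 79.8 and 132 TPM in KO-labelled libraries, against 89.0, 66.6 and 98.3 TPM in WT-labelled libraries. KO 1 and KO 2 lay inside the range of WT-labelled libraries and KO 3 above it. The difference was 0.16 (SE 0.231, limma adjusted p = 0.770), and -0.09 without KO 3. Top2a and Cdc6 lie at higher coordinates than Nr1d1 on chromosome 11. Their nearest bases are 217.6 kb and 132.5 kb from the start of Nr1d1, which is on the minus strand. Hmgb2, which encodes a DNA-bending chromatin protein abundant in dividing cells, had the smallest p of the mitotic genes. It was measured at 49.2, 50.4 and 65.1 TPM in KO-labelled libraries, against 55.6, 39.6 and 47.9 TPM in WT-labelled libraries (mm10 chr8:57511843-57515999, plus strand). The labels overlapped, with a difference of 0.20 (SE 0.162, limma adjusted p = 0.578).

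The kinase that drives mitosis is CDK1 with its cyclins. Cdk1 (mm10 chr10:69336635-69352912, minus strand) stood at 14.7, 14.9 and 23.1 TPM in KO-labelled libraries, against 20.9, 14.5 and 15.3 TPM in WT-labelled libraries. Each label had 2 low libraries and 1 high one, and the difference was 0.04 (SE 0.219, limma adjusted p = 0.940). Ccna2, the cyclin of S and G2 phase, was measured at 31.1, 33.5 and 50.7 TPM in KO-labelled libraries, against 37.5, 23.5 and 36.8 TPM in WT-labelled libraries (mm10 chr3:36564865-36571996, minus strand). KO 3 was high, WT 2 was low and the other libraries were close to each other, with a difference of 0.23 (SE 0.237, limma adjusted p = 0.666). Ccna2 shares 863 bases with Exosc9 on the opposite strand.

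Ccnb1 and Ccnb2 encode the cyclins B, which activate CDK1 at the entry into mitosis. Ccnb1 (mm10 chr13:100778739-100786486, minus strand) stood at 4.92, 6.87 and 9.70 TPM in KO-labelled libraries, against 5.51, 4.77 and 6.60 TPM in WT-labelled libraries. Ccnb2 (mm10 chr9:70407689-70421554, minus strand) stood at 25.0, 28.5 and 40.9 TPM in KO-labelled libraries, against 33.0, 16.8 and 32.2 TPM in WT-labelled libraries. KO 3 was the highest in both, and the other KO-labelled libraries overlapped WT-labelled libraries. The differences were 0.27 (SE 0.253, limma adjusted p = 0.633) for Ccnb1 and 0.23 (SE 0.282, limma adjusted p = 0.725) for Ccnb2, and without KO 3 they were 0.05 and 0.03. RefSeq names pseudogene copies of both cyclins, as it does of Pcna, Tyms and Stmn1, and reads shared with a copy would make these levels uncertain.

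The chromosomal passenger complex, which corrects the attachment of chromosomes to the spindle, was represented by the kinase Aurkb, by Birc5 (survivin) and by Cdca8 (borealin). Cdca8 (mm10 chr4:124918465-124936917, minus strand) stood at 28.1, 29.0 and 51.9 TPM in KO-labelled libraries, against 29.3, 24.0 and 33.1 TPM in WT-labelled libraries. KO 3 was 1.57-fold above the next library, and the others overlapped. The difference was 0.28 (SE 0.243, limma adjusted p = 0.602), the largest of the mitotic genes, and 0.00 without KO 3. Birc5 differed by 0.08, and by -0.16 without KO 3. Aurkb differed by -0.07, and by -0.33 without KO 3, with KO 1 and KO 2 below all WT-labelled libraries.

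The spindle checkpoint and the exit from mitosis are served by the kinases Bub1 and Bub1b, by Cdc20, which activates the anaphase-promoting ubiquitin ligase, and by Ube2c, the conjugating enzyme of that ligase. Ube2c (mm10 chr2:164769929-164772902, plus strand) was measured at 43.2, 39.6 and 70.6 TPM in KO-labelled libraries, against 47.9, 35.7 and 42.6 TPM in WT-labelled libraries, a difference of 0.24 (SE 0.222, limma adjusted p = 0.630). Bub1, given in full because it had the largest excess of KO 3 once the values had been seen, was at 5.08, 5.45 and 14.5 TPM in KO-labelled libraries, against 8.48, 8.31 and 8.48 TPM in WT-labelled libraries (mm10 chr2:127800200-127831859, minus strand). The WT-labelled libraries were almost equal, with KO 1 and KO 2 below them and KO 3 above them, so that the means of the labels were nearly the same at 8.33 ± 5.32 TPM in KO and 8.42 ± 0.0982 TPM in WT (SD, n = 3 each). KO 3 stood at 2.75-fold the mean of KO 1 and KO 2 for Bub1, 2.21-fold for Bub1b and 2.23-fold for Cdc20.

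Plk1 encodes the kinase that matures centrosomes and starts mitotic exit, and Aurka a centrosomal kinase that TPX2 activates. Plk1 was measured at 8.70, 13.8 and 24.0 TPM in KO-labelled libraries, against 15.5, 6.69 and 15.0 TPM in WT-labelled libraries, and these values too were picked after they had been seen. Its difference of 0.28 had an SE of 0.404, the largest of the 39, with the extremes in KO 3 and WT 2. Aurka, Tpx2 and Nusap1, a microtubule-bundling protein, differed by -0.08, 0.23 and 0.20. The spindle motor Kif11 and the kinetochore proteins Cenpe and Cenpf differed by 0.13, -0.08 and 0.07 (Cenpf by -0.0097 after quantile normalization), and KO 3 was 2.05-fold, 2.30-fold and 2.47-fold the mean of KO 1 and KO 2. Stmn1, a microtubule destabiliser, differed by 0.06 and was highest in WT 1.

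Taken over the classes, 12 of 17 replication and 17 of 22 mitotic differences were above 0, with medians of 0.11 and 0.16, against 49.5% of all genes above 0 and a median of -0.0028. Without KO 3 these counts were 5 of 17 and 5 of 22, with medians of -0.10 and -0.13, against a median of -0.02 over all genes and 52.5% of them below 0. Leaving out WT 2 instead gave medians of 0.01 and -0.03. The median thus turned sign without KO 3 in both classes, and without WT 2 in the mitotic class. KO 3 was singled out by its high levels in these same genes, so leaving it out lowers the differences by that choice. The counts and p-values without KO 3 carry the same limit and are no separate evidence of lower levels in KO. With KO 3 left out, 4 of the 39 genes had an unadjusted limma p under 0.05, namely Mcm6, Tk1, Mki67 and Bub1, all lower in KO, against a background of 22.5% of all genes. KO 1 and KO 2 both lay below every library labelled WT in 8 of the 39 genes, 3 replication (Mcm6, Cdt1 and Tk1) and 5 mitotic (Mki67, Bub1, Aurkb, Kif11 and Cenpe), near the background of 23.7% of all genes. In 0 of the 39 did both lie above, against 19.3% of all genes.

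**Figure D3:**
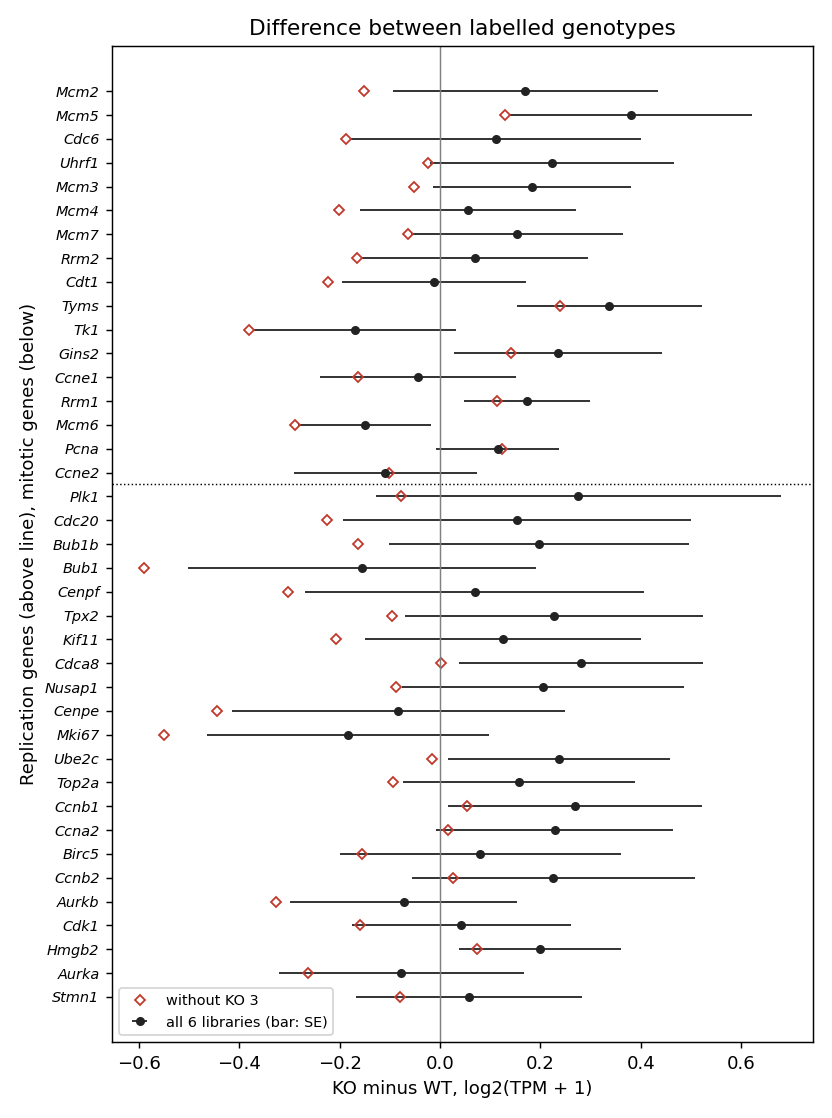
Difference of each of the 39 genes, KO minus WT in log2(TPM + 1), with all 6 libraries (black points, bars for 1 SE) and without the library labelled KO 3 (open red diamonds), replication genes above the dotted line. Black points lie above 0 for 29 genes, and diamonds for 10. KO 3 was singled out by its high levels in these genes, and that choice itself lowers most diamonds.

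The excess of KO 3 was unequal between the genes. Its level was a median 1.58-fold the mean of KO 1 and KO 2 over the replication genes, from 0.98-fold for Pcna to 1.98-fold for Cdc6. Over the mitotic genes the median was 1.78-fold, from 1.31-fold for Hmgb2 to 2.75-fold for Bub1. The transcripts nearest 1 were Pcna, Ccne2 (0.98-fold) and Rrm1 (1.13-fold), and the checkpoint and kinetochore genes Bub1, Cenpf and Cenpe were the farthest.

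Other genes of the cycle were read from lists that share no gene with the 39. Of 50 other replication genes, 0 passed the threshold and 0 had an unadjusted p under 0.05, 34 differences were above 0 (median 0.06), and KO 3 was the highest library in 46. Ung, the uracil-DNA glycosylase of repair at the fork, and Gmnn, the inhibitor of CDT1, had the smallest p of that list. Their log2 differences were 0.49 and 0.35 (limma adjusted p = 0.383 and 0.391). Of 55 other mitotic genes tested, 0 passed, 1 had an unadjusted p under 0.05, 39 were above 0 (median 0.09), and KO 3 was the highest library in 46. Cenpm, a centromere protein, and Cdca5 (sororin), which protects cohesion, had the smallest p of that list. Their log2 differences were 0.71 and 0.51 (limma adjusted p = 0.289 and 0.349). Without KO 3 the medians were -0.12 and -0.11. Both lists thus had KO 3 on top, as the 39 genes did.

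Among the regulators upstream were 20 transcription factors tested: E2F, retinoblastoma and DREAM factors, and Myc. KO 3 was highest in 10 of these 20, in 7 of 12 G1 cyclins and kinases and in 3 of 21 inhibitors of the cycle. Of the factors, Rb1, which encodes the retinoblastoma protein, was at 37.9, 39.7 and 40.0 TPM in KO-labelled libraries, against 44.4, 69.3 and 66.9 TPM in WT-labelled libraries (-0.58, limma adjusted p = 0.211), and Myc differed by 0.26 (limma adjusted p = 0.293). Neither gene's labels overlapped, and neither passed the threshold. Labels also did not overlap for Cdc25a (KO higher) and Foxo1 (KO lower), named next. Over all genes tested, 10.6% showed such a gap with KO-labelled libraries higher and 10.4% with them lower. Among the G1 genes the smallest p belonged to Cdc25a, the phosphatase that activates CDK2, and to Cdk4. Their log2 differences were 0.44 (limma adjusted p = 0.290) and 0.33 (limma adjusted p = 0.333). Among the inhibitors it belonged to Foxo1, a transcription factor that holds T cells quiescent, and to Cdkn2c, an inhibitor of CDK4 and CDK6. Their log2 differences were -0.47 (limma adjusted p = 0.191) and -0.47 (limma adjusted p = 0.323).

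**Figure D4:**
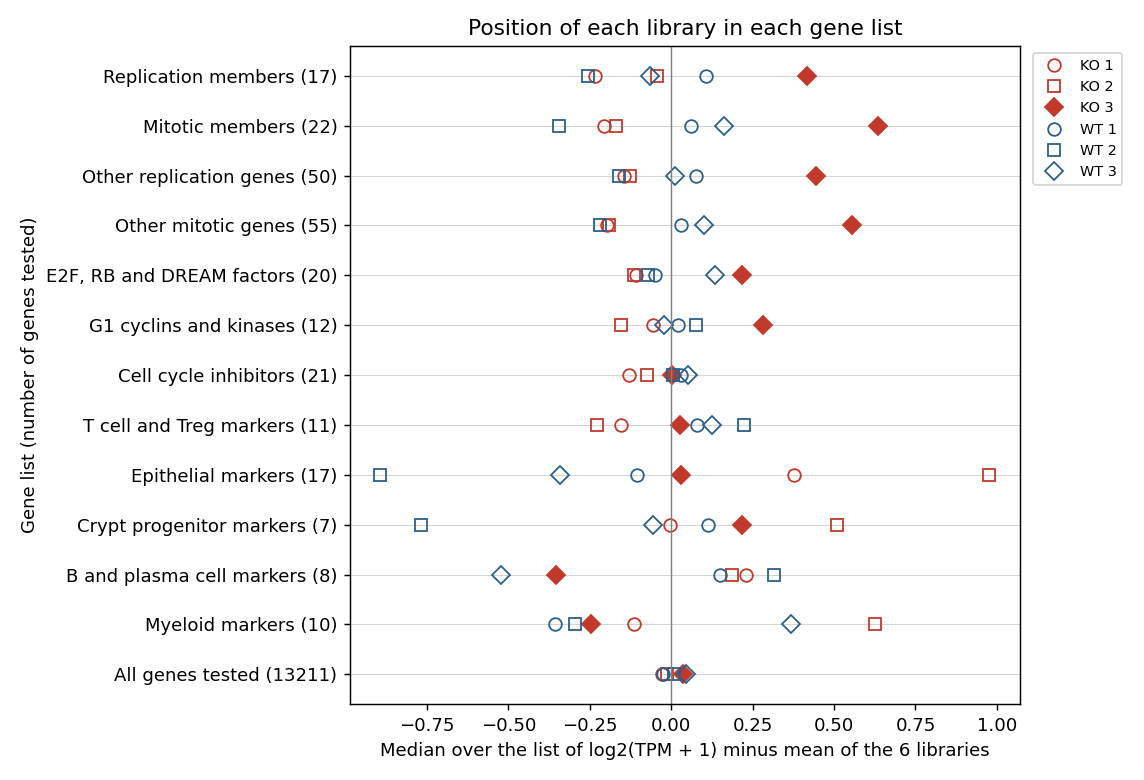
Median over each gene list of log2(TPM + 1) minus the mean of the 6 libraries, with 1 symbol per library (red for KO-labelled libraries, blue for WT-labelled libraries, the filled diamond for KO 3) and the number of genes tested in brackets. KO 3 lies apart at 0.42 and 0.63 in the replication and mitotic genes and near 0 in the T cell, epithelial and cell cycle inhibitor lists. The list named for E2F, RB and DREAM factors also holds Myc.

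Markers of other cells were read beside the library labelled KO 3. Its summed TPM of 11 T cell and Treg markers was 5588, against 5883 and 5214 in KO 1 and KO 2, and 6706, 7482 and 6868 in WT 1, 2 and 3. The largest of them, Ctla4, was lowest in KO 3, at 1925 TPM against 2344 and 2003 in KO 1 and KO 2, as was Icos. Cd3d, Cd3e, Cd3g, Cd4, Cd5, Foxp3 and Il2ra were instead higher in KO 3 than in KO 1 and KO 2. Ikzf2 and Tnfrsf18 lay between those libraries. The mean log2(TPM + 1) of the markers was 8.52 in KO 3, against 8.43 and 8.29 in KO 1 and KO 2. The part of T cells in the result was not tested. In KO 3 the 17 epithelial markers summed to 3679 TPM, the least of KO-labelled libraries (4334 in KO 1 and 6953 in KO 2) and above WT-labelled libraries (3519, 2341 and 2711). Epcam and Krt8 stood at 179 and 474 TPM in KO 3, below KO 1 (207 and 641) and KO 2 (285 and 1037), and above WT 1 (171 and 413). Of the 17 genes, 15 were highest in KO 2, and Muc2 and Agr2 were highest in KO 3, at 182 and 424 TPM. The part of epithelial cells in the result was not tested.

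The 10 markers of crypt progenitors, the dividing cells of the epithelium, summed to 67.0, 74.4 and 75.8 TPM in KO-labelled libraries, against 64.9, 43.2 and 56.2 TPM in WT-labelled libraries. The sum was thus highest in KO 3, but Cdca7 was its largest part there, and without Cdca7 KO 3 would lie below KO 1 and KO 2. Cdca7 in KO 3 was 1.94-fold the mean of KO 1 and KO 2, beside medians of 1.58-fold for replication and 1.78-fold for mitotic genes. Whether its reads came from crypt cells or T cells was not tested. The 10 markers differed: Lgr5 and Ascl2, genes of the stem cell, were at 0.162 and 0 TPM in KO 3, while Cdca7 was at 27.9 TPM in KO 3, 13.5 and 15.3 TPM in KO 1 and KO 2, and 14.1 to 16.9 TPM in WT-labelled libraries, and Axin2 and Tnfrsf19 were also highest in KO 3. Smoc2, Ephb2, Sox9, Slc12a2 and Rgmb were instead highest in KO 2, so the high sum of KO 3 did not hold across the list. The part of crypt progenitors in the result was not tested. The 8 B and plasma cell markers summed to the least in KO 3, at 543 TPM against 720 to 2085 TPM in the other 5 libraries. Of the 8, 4 were lowest in KO 3. The 10 myeloid markers summed to 842, 1453 and 794 TPM in KO-labelled libraries, against 755, 768 and 1212 TPM in WT-labelled libraries. The 7 neutrophil markers summed to the most in KO 3, at 75.6 TPM, with 32.7 and 67.2 in KO 1 and KO 2. WT-labelled libraries stood at 36.0 to 37.9 TPM. S100a8, S100a9, Retnlg and Cxcr2 were highest in KO 3. Csf3r was highest in KO 2, Mmp9 in WT 2 and Ly6g in KO 1, and Ly6g was lowest in KO 3, at 0.414 TPM. KO 3 was also the deepest library. The part of neutrophils and of depth in the result was not tested. The 6 CD8 T cell and NK cell markers summed to the least in KO 3, at 9.84 TPM against 14.5 to 25.3 TPM elsewhere. Only Cd8a and Klrk1 of them were lowest in KO 3. The 9 fibroblast and muscle markers summed to 495, 419.5 and 254 TPM in KO-labelled libraries, against 197, 335 and 465 TPM in WT-labelled libraries. The 4 nuclear RNAs, among them Malat1, summed to 445, 493 and 455 TPM in KO-labelled libraries, against 787, 1014 and 884 TPM in WT-labelled libraries, and 7 red cell markers to at most 0.237 TPM in KO and 10.9 to 68.1 TPM in WT. Of the red cell markers, Hbb-bs and Hbb-b1 overlap and had the same reads, 21, 104 and 50 in WT 1, 2 and 3. Hba-a1 and Hba-a2 likewise both had 1, 46 and 32 reads. The WT sums of red cell markers thus hold the same reads more than once.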

How the data were processed

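The authors deposited TPM values, 1 row per RefSeq transcript with coordinates and length, per the file headers; the submitters' processing notes list FastQC 0.11.8, Trim Galore 0.4.4, STAR 2.5.3a, HOMER 4.9.1 and mm10, and per the labels' protocols a stranded poly(A) kit was used on 1.3 µg of RNA. TPM times length came out in whole multiples of 1 step per library for at least 99.99% of values up to 500 reads (tolerance 0.1), which gave the reads quoted as depth. Deposited TPM sums to between 634200 and 644662 per library. Differences are KO minus WT on log2(TPM + 1), which understates low genes. The test was limma 3.58.1 in R 4.3.3, two-sided with a variance trend, over 13211 genes, with Benjamini-Hochberg adjustment at 0.05. Exact permutation tests of 3 against 3 libraries cannot go below p = 0.1.

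The members, gene lists and marker lists were chosen with earlier results of these data known. Values per library are given for the 6 smallest p of each class and for Pcna, Mki67, Top2a, Ccnb1, Cdk1, Ccne1 and Ccne2; of each other cycle list, the 2 genes with the smallest p are named. Other genes given in full were picked after their values were seen. Mycn was below the filter. Alternatives were other pseudocounts (0.1 and 0.5), filters (none, TPM of 5), scalings, library weights, voom, a replicate block, an epithelial covariate, each library left out and, added after seeing the data, KO 3 and WT 2 left out together.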

Additional observations from a re-analysis of the deposited data

How the results depend on the processing

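All 18 planned settings that were run called 0 of the 39 genes, of which a filter at a TPM of 5 kept 37; over all genes, library weights called 582 and leaving out single libraries 0 to 7, the 7 without WT 1 and 1 without WT 2. The numbers of the labels do not pair the libraries, and with them as a replicate block the medians stayed at 0.11 for replication and 0.16 for mitotic genes, with 0 calls; correlations of same-numbered libraries were 0.0037, -0.22 and -0.041. Pseudocounts, filters, no variance trend, TMM and the block turned no sign among the 39. The class medians turned with library weights, to -0.014 for replication and -0.0540 for mitotic genes. Leaving out 1 library moved them between -0.10 and 0.25 for replication, and between -0.13 and 0.29 for mitotic genes, the lower ends without KO 3 and the upper ends without KO 1. Leaving out KO 3 and WT 2 together gave medians of -0.17 and -0.28 with no test; that pair was chosen after seeing the data, by these genes' own levels, and the choice itself lowers the value. KO 3 turned the sign of 19 genes when left out, WT 2 of 12, KO 1 of 7, KO 2 of 3, WT 3 of 3 and WT 1 of 1. Library weights turned Mcm2 (-0.014), Mcm4 (-0.090), Rrm2 (-0.058), Cdc6 (-0.058), Top2a (-0.056), Cdk1 (-0.010), Bub1b (-0.079), Birc5 (-0.14), Kif11 (-0.16), Cdc20 (-0.053), Plk1 (-0.0047), Tpx2 (-0.055), Nusap1 (-0.041) and Cenpf (-0.24). The epithelial score as a covariate turned Pcna (-0.088), Mcm6 (0.13), Cdt1 (0.25), Tk1 (0.061), Ccne1 (0.14), Mki67 (0.30), Bub1 (0.48), Aurkb (0.27), Cenpe (0.24), Stmn1 (-0.11), Epcam (-0.013) and Cdkn2c (0.0099). Epcam is itself part of that score, so its fall toward 0 follows from the covariate. With this covariate the class medians were 0.24 for replication and 0.29 for mitotic genes. Cdt1 turned with quantile normalization (0.018), median centring (0.0041) and voom (0.012), and Cenpf with quantile normalization (-0.0097). The cause of these turns was not tested. Log2 differences with single libraries left out ranged, for the genes that turned, as follows: Mcm2 -0.15 to 0.43, Mcm3 -0.051 to 0.35, Mcm4 -0.20 to 0.23, Mcm7 -0.064 to 0.29, Rrm2 -0.16 to 0.28, Cdc6 -0.19 to 0.36, Cdt1 -0.22 to 0.14, Uhrf1 -0.024 to 0.40, Ccne1 -0.16 to 0.069, Mki67 -0.55 to 0.039, Top2a -0.093 to 0.30, Ccnb2 -0.079 to 0.39, Cdk1 -0.16 to 0.20, Bub1 -0.59 to 0.084, Bub1b -0.16 to 0.41, Aurka -0.26 to 0.14, Aurkb -0.33 to 0.074, Birc5 -0.20 to 0.25, Kif11 -0.21 to 0.31, Cdc20 -0.23 to 0.49, Plk1 -0.085 to 0.61, Tpx2 -0.097 to 0.39, Nusap1 -0.088 to 0.36, Cenpe -0.44 to 0.20, Cenpf -0.30 to 0.29, Ube2c -0.015 to 0.39 and Stmn1 -0.16 to 0.28. Fits with edgeR and DESeq2 were planned and not run, because the deposited unit is not a count. With 3 libraries a label the test detected little. Even Foxp3, which differed by -1.49 (SE 0.172), missed the threshold, at a limma adjusted p of 0.0678, the smallest over all genes. The 0 calls among the 39 genes, whose SE reached 0.404, therefore do not show that the levels were equal.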
